A study of Caenorhabditis elegans with 7 samples.

Results

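The genes described here encode parts of the machinery that makes protein. They are 39 of the 3717 genes in a table of splice junctions read in small RNA of Caenorhabditis elegans embryos, and they were chosen by gene name: 21 ribosomal protein genes, 15 translation factor genes and 3 genes named rpa. The rpa genes (rpa-1, rpa-2 and rpa-4) carry the names of replication protein A, which binds single-stranded DNA, while the acidic ribosomal protein has the name rla-0. They go against the label of a ribosomal protein and are therefore kept apart. The annotation gives Y37E3.10 the name eif-2alpha, and its product is the alpha subunit of initiation factor eIF2. The members lie on chromosomes I (15 genes), II (8), III (6), IV (6), V (2) and X (2), and splice-site bases are given below for those outside chromosome I.

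A ribosome joins a small and a large subunit, whose proteins are made from rps and rpl genes, and translation factors load it onto mRNA, find the start codon and drive elongation. Worms make many of their short endogenous small RNAs by copying mRNA with RNA-dependent RNA polymerases, so a small RNA can span the junction of a spliced transcript or reach from an exon into an intron. Small RNA at a gene is not a measure of its mRNA.

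The 7 libraries were made from gel-purified small RNA of embryos freed from adults with hypochlorite, all in the N2 background. The genotypes were rnp-2(mg582) with 2 libraries, rnp-2(tm4058) with 1, mog-2(ok1221) with 1, rnp-3(ok1424) with 1 and wildtype N2 with 2. The gene rnp-2 encodes a U1 small nuclear ribonucleoprotein component, and mog-2 and rnp-3 encode homologs of U2 components. The labels say neither what each allele changes nor whether the pairs of libraries are separate cultures. The limma p-values for rnp-2(mg582) against wildtype thus reflect the scatter within these 2 pairs of libraries only, some of which may be technical. Each genotype with 1 library is fitted on its own there and adds nothing to that scatter. Where all mutant libraries are pooled as 1 group, the scatter is that among all 7 libraries. Libraries of mog-2(ok1221), rnp-3(ok1424), rnp-2(mg582) 1 and wildtype 1 belong to experiment 1, and those of rnp-2(tm4058), rnp-2(mg582) 2 and wildtype 2 to experiment 2.

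The libraries held 9901228 to 142819946 reads, of which the table listed 73843 (rnp-2(tm4058)) to 474217 (wildtype 2) as spliced. Spliced reads were 0.0517% of the rnp-2(tm4058) library, the lowest share, against 0.215% to 1.88% in the others, and its members had a median of 3 spliced reads. The mutated gene rnp-3 had 0 spliced reads in rnp-3(ok1424), against 5 and 8 in wildtype. The gene rnp-2 had 12 and 10 spliced reads in rnp-2(mg582) and 1 in rnp-2(tm4058), against 11 and 15 in wildtype, and mog-2 was not analysed here. Of 26 embryo and early zygotic marker genes, 8 were in the table. In rnp-2(mg582) against wildtype 7 of these 8 had negative log2 changes, and none passed in limma (0 at an unadjusted p under 0.05).

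The members had 65 introns, counted as 59 junctions. Levels below are scaled CPM: the deposited CPM of spliced reads divided by a factor per library (trimmed mean of M values, TMM) that sets the bulk of the listed genes equal. Scaled levels are therefore relative to the other genes of the table and not to the whole library. They are sums over a gene's listed junctions and are not compared between genes.

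The splice sites of the genes whose reads changed, of their paralogs and of the introns with unspliced reads are shown first, because each junction was read across these bases. Each donor line gives the last 5 exon bases and the first 10 intron bases, and each acceptor line the last 10 intron bases and the first 5 exon bases, on the gene's strand. Capitals mark the first and last 2 bases of the intron. Positions follow WBcel235.
rpl-11.2 donor: agaagGTaaattttc
rpl-11.2 acceptor: aaattttcAGtatga
rpl-11.1 donor: ttcagGTtagcttaa
rpl-11.1 acceptor: ttgtttccAGgagca
rpl-23 donor: gaaggGTatgttttt
rpl-23 acceptor: atttttacAGttctc
rpl-22 donor: atcttGTaagttgta
rpl-22 first acceptor: ttgttttcAGgaagc
rpl-22 second acceptor: cctcatcaAGtcgat
rpl-34 donor: acggaGTacgttttt
rpl-34 acceptor: tcgctttcAGatcac
ife-5 donor: cgaagGCtagtttat
ife-5 acceptor: ttttttccAGgatat
iff-2 long intron donor: gcaagGTtcgctttg
iff-2 long intron acceptor: aaagttgtAGatcgt
iff-2 upstream intron donor: actgtGTaagtatta
iff-2 upstream intron acceptor: tgcgttgtAGggtac

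These introns lie at X:2241939-2241985 (rpl-11.2, minus strand), V:3585609-3585657 (rpl-11.1, minus), III:5705801-5705896 (rpl-23, minus), IV:12269161-12269287 (rpl-34, plus) and II:8560241-8560826 (the long intron of iff-2, minus). The other 3 have 1 end in the table, at II:5055744 and II:5055784 for rpl-22 (plus), whose lines share 1 donor and were counted once, II:12282824 for ife-5 (plus) and II:8560964 for iff-2 (minus). The ife-5 donor begins with GC in place of GT, and its listed position is not an annotated intron end. At their junctions the 10 exon bases printed for rpl-11.2 and rpl-11.1 are identical at 4 of 10 positions.

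Ribosomal protein introns were short and had the usual splice-site letters. The 23 ribosomal protein introns with both ends listed were 43 to 127 bases long, with a median of 48, against 53 for 24 translation factor introns and 58 for all 6855 introns of the table. All 23 began with GT and ended with AG. The donor letters GTAAGT, which can pair with the 5′ end of U1 small nuclear RNA, stood at 1 of 23 ribosomal protein introns (4.35%), 6 of 24 translation factor introns (25%) and 15.5% of all introns. The acceptor letters TTTTCAG ended 9 of 23 ribosomal protein introns (39.1%), 7 of 24 translation factor introns (29.2%) and 30.8% of all introns. Both motifs were read on the gene's strand only, at the splice site itself. Lines with 1 listed end, among them those of rpl-22 and rpl-31, are left out of these counts. The rpl-22 donor shown above holds GTAAGT. The median number of the 6 donor letters shared with GTAAGT was 5 in ribosomal protein introns, 4 in translation factor introns and 5 in all introns.

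Ribosomal protein genes took a smaller share of the listed spliced small RNA in each of the 5 mutant libraries than in either wildtype library, while for translation factor genes the libraries overlapped. This sum was not tested, since the members were chosen with results known. The 21 ribosomal protein genes took 0.116% of all listed spliced reads in rnp-2(mg582) 1 and 0.1004% in rnp-2(mg582) 2. They took 0.0867% in rnp-2(tm4058), 0.0829% in mog-2(ok1221) and 0.0858% in rnp-3(ok1424), against 0.166% in wildtype 1 and 0.154% in wildtype 2. This share needs no scaling between libraries. In RNA of whole embryos, fewer cells that carry such small RNA and less of it per cell cannot be told apart. The highest mutant library, rnp-2(mg582) 1, had a 95% Wilson interval of 0.102% to 0.133%, and the lowest wildtype library one of 0.143% to 0.166%, so the intervals of mutant and wildtype libraries did not meet. Intervals cover counting error only, since reads are not independent molecules.

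**Figure D1:**
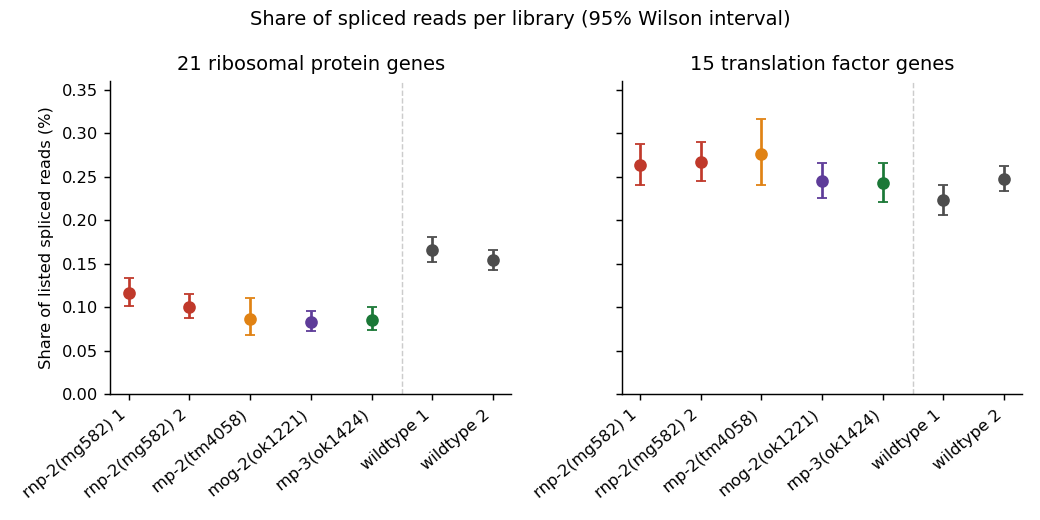
Share of listed spliced reads (percent, with 95% Wilson interval) taken by 21 ribosomal protein genes (left) and 15 translation factor genes (right) in 5 mutant libraries and, right of the dashed line, 2 wildtype libraries. The ribosomal protein share lies between 0.0829% and 0.116% in the mutant libraries and at 0.166% and 0.154% in wildtype, while the translation factor values of mutant and wildtype libraries overlap.

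The 15 translation factor genes took 0.263% and 0.267% in rnp-2(mg582), 0.276% in rnp-2(tm4058), 0.245% in mog-2(ok1221) and 0.242% in rnp-3(ok1424), against 0.223% and 0.248% in wildtype. Mutant and wildtype values overlapped. The 3 replication protein A genes had 0.0309% and 0.0298% in rnp-2(mg582), 0.0284% in rnp-2(tm4058), 0.0211% in mog-2(ok1221) and 0.0177% in rnp-3(ok1424), against 0.0219% and 0.0306% in wildtype, which also overlapped.

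How a gene came to be listed bears on these shares. Every line of the table reached at least 0.505 CPM in some column. A read was worth more CPM in experiment 1, and 18 of the 21 ribosomal protein genes reached that value in experiment 1 only. So did 2685 of all 3717 genes. The 4 ribosomal protein genes rpl-1, rpl-11.2, rpl-22 and rpl-34 and the translation factor eif-3.F reached it in wildtype 1 alone, so they had to be high there. Of the other ribosomal protein genes, 5 reached it in mutant libraries only and 12 in both. Over all genes, 3.95% reached it in wildtype libraries only, 37.4% in mutant libraries only and 58.6% in both. The 12 ribosomal protein genes that reached it in both kinds of library took 0.0933% and 0.0780% of listed spliced reads in rnp-2(mg582), 0.0582% in rnp-2(tm4058), 0.0692% in mog-2(ok1221) and 0.0611% in rnp-3(ok1424), against 0.125% and 0.119% in wildtype. All 5 mutant libraries stayed below both wildtype libraries in this smaller group. Each of these 12 genes reached it in wildtype 1, and no mutant library did for all of them, so the listing still leaned on wildtype 1. The median log2 change in rnp-2(mg582) against wildtype was -0.24 for these 12 and -0.51 for the 4 listed through wildtype 1 alone. It was 0.12 for the 5 listed through mutant libraries only, of which 4 were tested.

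Setting rnp-2(mg582) against wildtype addresses which members change when a U1 component is mutated. Of 20 ribosomal protein genes that passed the filter on low values, 4 fell and none rose at an adjusted p under 0.05 in limma (a linear model with Benjamini-Hochberg adjustment over 3551 genes), where 4.56% of all tested genes fell and 3.8% rose. Of these 4, rpl-11.2 and rpl-22 are among the 4 genes that were listed through wildtype 1 alone and had to be high there, and rpl-23 and rpl-31 are among the 12 listed through both kinds of library. The member rpl-5 did not pass the filter, with 0 to 5 reads per library. Of 15 translation factor genes and 3 replication protein A genes, none passed in either direction, with 2 and 0 at an unadjusted p under 0.05. The median log2 change was -0.25 for ribosomal protein genes, -0.01 for translation factor genes and 0.20 for replication protein A genes, against -0.02 for all tested genes. That of the 8 embryo marker genes was -0.14, and its part in the ribosomal protein values was not tested. Without TMM, on library size alone, these medians were -0.48, -0.38, 0.01 and -0.24, and no member passed. Both scaled rnp-2(mg582) libraries lay below both wildtype libraries for 10 of 20 ribosomal protein genes and 5 of 15 translation factor genes, where 27.4% of all genes did, and above them for 2 and 3, where 23.7% did. On CPM without the scaling factor these counts were 5 and 1 lower (14.6% of all genes) and 0 and 0 higher (3.21%).

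**Figure D2:**
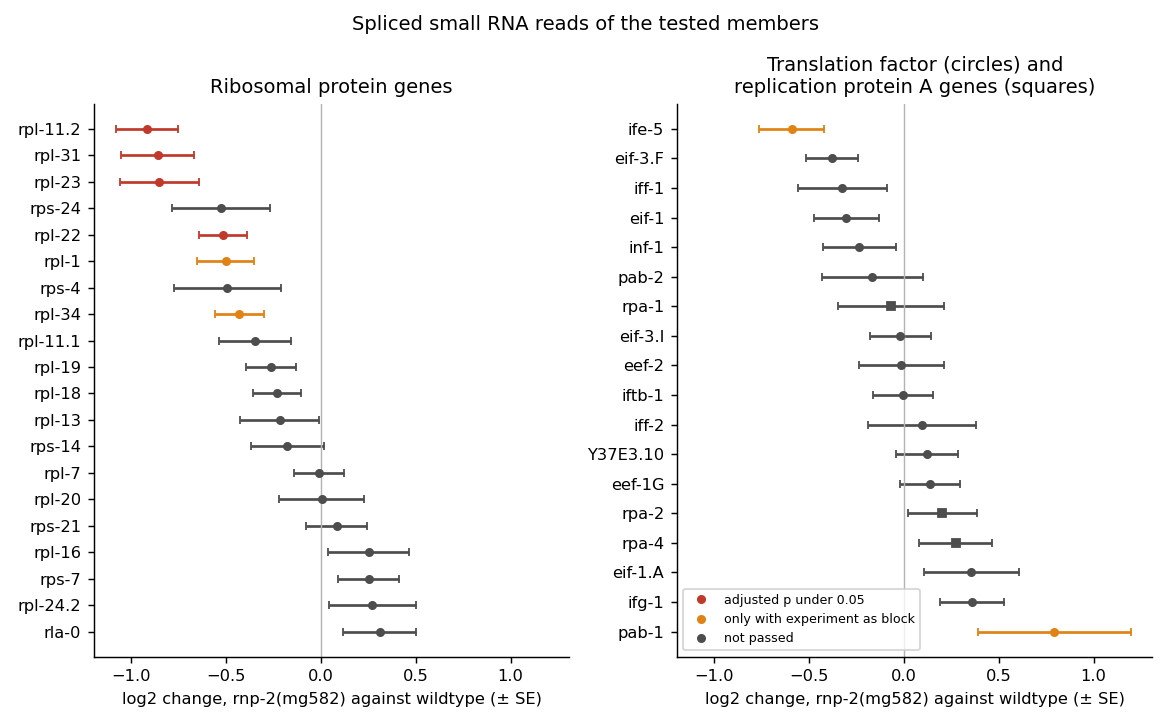
Log2 change in rnp-2(mg582) against wildtype, on log2(scaled CPM + 0.5), with its standard error, for the 38 members that passed the filter. Ribosomal protein genes (left) run from -0.92 (rpl-11.2) to 0.31 (rla-0), translation factor and replication protein A genes (right) from -0.59 (ife-5) to 0.79 (pab-1), and colours mark the calls.

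The 4 ribosomal protein genes that fell are named as large subunit genes, as are 15 of the 20 tested. The largest fall was in rpl-11.2, 1 of a pair of genes for ribosomal protein L11. It had 1 spliced read in rnp-2(mg582) 1 and 1 in rnp-2(mg582) 2, 0 in rnp-2(tm4058), 1 in mog-2(ok1221) and 1 in rnp-3(ok1424), against 33 in wildtype 1 and 27 in wildtype 2. On the scaled level this was 0.0312 ± 0.00153 CPM in rnp-2(mg582) and 0.515 ± 0.224 CPM in wildtype (mean ± SD, n = 2 each), and every mutant library lay below both wildtype libraries. Summed reads over summed library depth (total reads times the TMM factor) gave a ratio, rnp-2(mg582) over wildtype, of 0.0649. Its exact 95% counting interval was 0.00768 to 0.245. For the 5 mutant libraries the ratio was 0.0596 (0.0157 to 0.161). The log2 change was -0.92 ± 0.17 (SE) in limma, with an adjusted p of 0.0144. Fold changes on the log2(value + 0.5) scale understate the change of genes with such low values. The 0 reads of rnp-2(tm4058) allow up to 3 reads, which is 0.248 scaled CPM in that library. Experiment 2 did not decide its listing. The members were chosen with earlier results of these data known, however, so experiment 2 is no independent check. There the gene had 1 of 201207 listed spliced reads in rnp-2(mg582) 2 and 0 of 73843 in rnp-2(tm4058), against 27 of 474217 in wildtype 2.

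Its paralog rpl-11.1 had 10 and 12 in rnp-2(mg582), 9 in rnp-2(tm4058), 12 in mog-2(ok1221) and 9 in rnp-3(ok1424), against 31 and 39 in wildtype. Its reads too were fewer in each mutant library, while its scaled levels overlapped, with 0.745 CPM in rnp-2(tm4058). On the scaled level rnp-2(mg582) had 0.342 ± 0.0274 CPM and wildtype 0.573 ± 0.0837 CPM (mean ± SD, n = 2 each), a log2 change of -0.35 ± 0.19 (SE) that did not pass in limma (adjusted p = 0.343). Within a library, rpl-11.2 gave 9.09% and 7.69% of the pair's spliced reads in rnp-2(mg582), 0% in rnp-2(tm4058), 7.69% in mog-2(ok1221) and 10% in rnp-3(ok1424), against 51.6% and 40.9% in wildtype. The highest upper 95% Wilson limit of a mutant library was 40.4%, in rnp-3(ok1424), above the lower limits of both wildtype libraries, 39.6% and 29.9%. The log2 ratio of rpl-11.2 over rpl-11.1, with 0.5 reads added to each, averaged -3.17 ± 0.628 in the mutant libraries (SD, n = 5) and -0.22 ± 0.432 in wildtype (SD, n = 2), a difference of -2.95. An exact two-sided permutation test over the 21 splits gave p = 0.0952, the smallest p that 5 against 2 libraries allow. Adjusted over the 3 paralog pairs compared, p was 0.286. This test was added after the values had been seen. Of the pair, only rpl-11.2 was listed through wildtype 1 alone, so the listing favoured a high ratio there. The p-value is therefore no independent support. How reads that align to several places were counted is not given in the sources used here, so exchange of reads between the paralogs was not tested.

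The gene rpl-23 had 9 and 15 reads in rnp-2(mg582), 3 in rnp-2(tm4058), 10 in mog-2(ok1221) and 13 in rnp-3(ok1424), against 46 and 91 in wildtype. Scaled, these were 0.291 and 0.452 CPM in rnp-2(mg582), 0.248 in rnp-2(tm4058), 0.293 in mog-2(ok1221) and 0.442 in rnp-3(ok1424), against 0.938 and 1.20 in wildtype. The groups did not overlap. The log2 change in rnp-2(mg582) was -0.85 ± 0.21 (SE; limma adjusted p = 0.0477). Its listing rested on libraries of both kinds.

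The gene rpl-31 had 9 and 10 reads in rnp-2(mg582), 2 in rnp-2(tm4058), 24 in mog-2(ok1221) and 15 in rnp-3(ok1424), against 43 and 77 in wildtype. Its scaled levels were 0.291 and 0.301 CPM in rnp-2(mg582), 0.166 in rnp-2(tm4058), 0.704 in mog-2(ok1221) and 0.509 in rnp-3(ok1424), against 0.877 and 1.01 in wildtype. The 3 rnp-2 libraries were the lowest, and mog-2(ok1221) came nearest to wildtype. The log2 change in rnp-2(mg582) was -0.86 ± 0.19 (SE; limma adjusted p = 0.0334). All 3 lines of rpl-31 have 1 end only, and its junctions may share alignments.

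The gene rpl-22 had 3 and 1 reads in rnp-2(mg582), 0 in rnp-2(tm4058), 2 in mog-2(ok1221) and 1 in rnp-3(ok1424), against 17 and 20 in wildtype. Its log2 change in rnp-2(mg582) was -0.52 ± 0.13 (SE, limma adjusted p = 0.0449). Summed reads over summed library depth, as for rpl-11.2, were 0.210 times the wildtype value in rnp-2(mg582) (exact 95% counting interval 0.0545 to 0.586). In experiment 2 the gene had 1 of 201207 listed spliced reads in rnp-2(mg582) 2 and 0 of 73843 in rnp-2(tm4058). Wildtype 2 had 20 of 474217. Like rpl-11.2 it was listed through wildtype 1 alone, and these reads are no independent check.

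**Figure D3:**
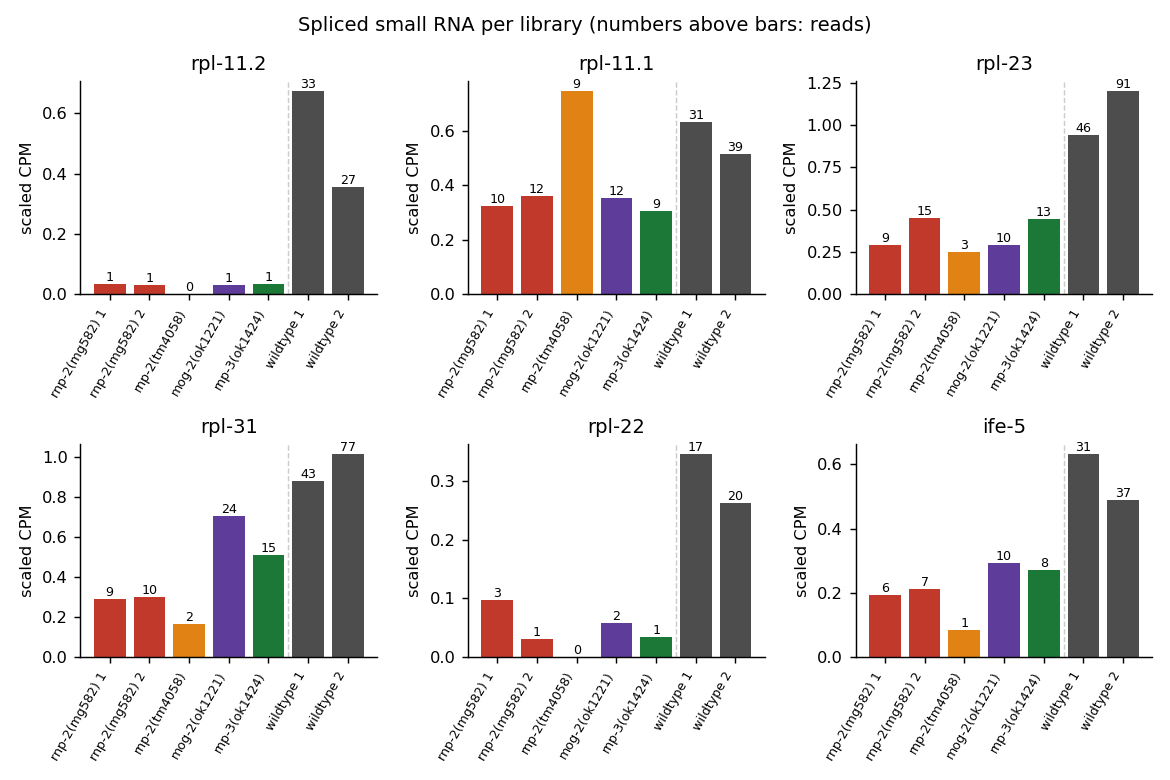
Scaled CPM (bars) and spliced reads (numbers) of rpl-11.2, rpl-11.1, rpl-23, rpl-31, rpl-22 and ife-5 in 5 mutant libraries and, right of the dashed line, 2 wildtype libraries. For rpl-11.2 the mutant libraries hold 0 or 1 read and wildtype 33 and 27, while rpl-11.1 holds 9 to 12 reads in each mutant library.

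These 4 calls depended on single libraries and on the scaling. Leaving out wildtype 1 or either rnp-2(mg582) library left none of the members past the threshold, and leaving out wildtype 2 left 1 (rpl-11.2, limma adjusted p = 0.0213). All 4 log2 changes stayed negative in each of these fits. Among the members' junctions 1 fell, that of rpl-11.2 (limma adjusted p = 0.0195), where 3.08% of all junctions fell and 2.65% rose. With the experiment as a block 11 passed, 9 lower and 2 higher, where 11.6% fell and 8.14% rose.

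With the experiment as a block, which the pairing of libraries in 2 experiments allows, 6 ribosomal protein genes fell in rnp-2(mg582), where 11.9% of all genes fell and 8.42% rose. The further calls were rpl-1 and rpl-34. Like rpl-11.2 and rpl-22, both were listed through wildtype 1 alone and had to be high there. The gene rpl-1 had 6 and 4 reads in rnp-2(mg582), 1 in rnp-2(tm4058), 6 in mog-2(ok1221) and 4 in rnp-3(ok1424), against 22 and 31 in wildtype (log2 -0.50, limma adjusted p = 0.0301 with the block and 0.0901 without). The gene rpl-34 had 1 and 4 reads in rnp-2(mg582), 2 in rnp-2(tm4058), 0 in mog-2(ok1221) and 1 in rnp-3(ok1424), against 12 and 23 in wildtype (log2 -0.43, 0.0267 with the block and 0.0951 without). For both genes every mutant library lay below both wildtype libraries on the scaled level.

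The other ribosomal protein genes did not pass. The small subunit gene rps-4, whose intron at IV:7083856-7083956 holds the snoRNA gene Y43B11AR.7, had 29 and 15 reads in rnp-2(mg582), 6 in rnp-2(tm4058), 26 in mog-2(ok1221) and 19 in rnp-3(ok1424), against 44 and 109 in wildtype, with scaled levels that overlapped (log2 -0.49 ± 0.28 SE, limma adjusted p = 0.362). The small subunit gene rps-24 had 0.484 and 0.573 scaled CPM in rnp-2(mg582), 0.248 in rnp-2(tm4058), 0.381 in mog-2(ok1221) and 0.136 in rnp-3(ok1424), against 1.37 and 0.672 in wildtype (log2 -0.53 ± 0.26 SE, limma adjusted p = 0.281). Its 2 wildtype libraries differed by more than its rnp-2(mg582) libraries did. The stalk protein gene rla-0 had 0.807 and 0.753 scaled CPM in rnp-2(mg582), 0.497 in rnp-2(tm4058), 0.528 in mog-2(ok1221) and 0.272 in rnp-3(ok1424), against 0.551 and 0.514 in wildtype (log2 0.31 ± 0.19 SE, limma adjusted p = 0.402). The remaining 10 tested ribosomal protein genes had log2 changes between -0.26 (rpl-19) and 0.27 (rpl-24.2), and none passed with or without the block.

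Among translation factors the 5 with the highest mean level did not pass without the block. The gene iff-2, a homolog of eIF5A, which helps the ribosome through difficult stretches, had 130 and 147 spliced reads in rnp-2(mg582), 38 in rnp-2(tm4058), 248 in mog-2(ok1221) and 159 in rnp-3(ok1424), against 158 and 376 in wildtype. On the scaled level these were 4.20 and 4.43 CPM in rnp-2(mg582), 3.15 in rnp-2(tm4058), 7.27 in mog-2(ok1221) and 5.40 in rnp-3(ok1424), against 3.22 and 4.96 in wildtype (log2 0.09 ± 0.28 SE in rnp-2(mg582), limma adjusted p = 0.885, and -0.49 on library size alone). Its paralog iff-1 had 1.29 and 1.02 scaled CPM in rnp-2(mg582), 1.08 in rnp-2(tm4058), 1.32 in mog-2(ok1221) and 1.56 in rnp-3(ok1424), against 1.61 and 1.53 in wildtype (log2 -0.32 ± 0.23 SE, limma adjusted p = 0.474). The gene eif-1.A, a start codon selection factor, had 1.36 and 1.30 scaled CPM in rnp-2(mg582), 1.41 in rnp-2(tm4058), 1.85 in mog-2(ok1221) and 1.12 in rnp-3(ok1424), against 1.16 and 0.725 in wildtype (log2 0.36 ± 0.25 SE, limma adjusted p = 0.463, and -0.0813 on library size alone).

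The poly(A)-binding protein gene pab-1 was higher in each rnp-2(mg582) library than in the wildtype library of its own experiment. It had 2.78 scaled CPM in rnp-2(mg582) 1, against 1.22 in wildtype 1, and 5.03 in rnp-2(mg582) 2, against 3.01 in wildtype 2. In the other mutants it had 6.04 in rnp-2(tm4058), 2.14 in mog-2(ok1221) and 1.77 in rnp-3(ok1424). The log2 change in rnp-2(mg582) was 0.79 and passed with the block (limma adjusted p = 0.00686) but not without it (0.306). On CPM without the scaling factor the order within experiment 2 was the other way, with 1.79 CPM in rnp-2(mg582) 2 and 0.511 in rnp-2(tm4058), against 2.58 in wildtype 2. Its paralog pab-2 had 2.20 and 1.66 scaled CPM in rnp-2(mg582), 1.32 in rnp-2(tm4058), 1.41 in mog-2(ok1221) and 2.45 in rnp-3(ok1424), against 2.55 and 1.90 in wildtype (log2 -0.17 ± 0.27 SE, limma adjusted p = 0.773).

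The ratios within these other 2 pairs did not pass. The log2 ratio of pab-1 over pab-2 averaged 0.84 ± 1.04 in the 5 mutant libraries and -0.20 ± 1.21 in the 2 wildtype libraries (exact two-sided permutation p = 0.381), and that of iff-1 over iff-2 averaged -1.90 ± 0.371 in the mutant libraries and -1.34 ± 0.493 in wildtype (exact p = 0.286), with the adjusted p at 0.381 for both.

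The gene ife-5 encodes a cap-binding protein of the eIF4E family. It had 6 and 7 spliced reads in rnp-2(mg582), 1 in rnp-2(tm4058), 10 in mog-2(ok1221) and 8 in rnp-3(ok1424), against 31 and 37 in wildtype. Every mutant library lay below both wildtype libraries on the scaled level. The log2 change in rnp-2(mg582) was -0.59, with a limma adjusted p of 0.0203 with the block and 0.0783 without. All its reads come from 1 line, which has the GC donor shown above. The remaining 9 translation factor genes had log2 changes between -0.38 (eif-3.F, a subunit of the eIF3 scaffold) and 0.36 (ifg-1, the eIF4G scaffold), and none passed with or without the block. They include the helicase eIF4A gene inf-1 (-0.23), the elongation factor genes eef-2 (-0.01) and eef-1G (0.14), and the eIF2 subunit genes iftb-1 (-0.00) and Y37E3.10 (0.12).

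Setting all 5 mutant libraries against both wildtype libraries addresses what these genotypes have in common. This fit pooled the 5 libraries as 1 group, so differences between the mutant genotypes counted as scatter. No gene passed in limma (0% of 3551 genes in either direction), with 7 ribosomal protein and 2 translation factor genes at an unadjusted p under 0.05. The lowest adjusted p among the members was 0.0705, for rpl-11.2, whose log2 change was -0.93 ± 0.15 (SE). edgeR called 0 members and DESeq2 called 1, rpl-11.2 (adjusted p = 0.00743). All 5 scaled mutant libraries lay below both wildtype libraries for 8 of 20 ribosomal protein genes and 2 of 15 translation factor genes, where 8.19% of all genes did. The 8 were rpl-1, rpl-11.2, rpl-19, rpl-22, rpl-23, rpl-31, rpl-34 and rps-24, and the 2 were ife-5 and eif-3.F. No member lay above wildtype in this way, where 5.35% of all genes did. Of the 10 genes, rpl-1, rpl-11.2, rpl-22, rpl-34 and eif-3.F are those listed through wildtype 1 alone. On CPM without the scaling factor, 3 ribosomal protein genes lay below wildtype in this way (0.76% of all genes).

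**Figure D4:**
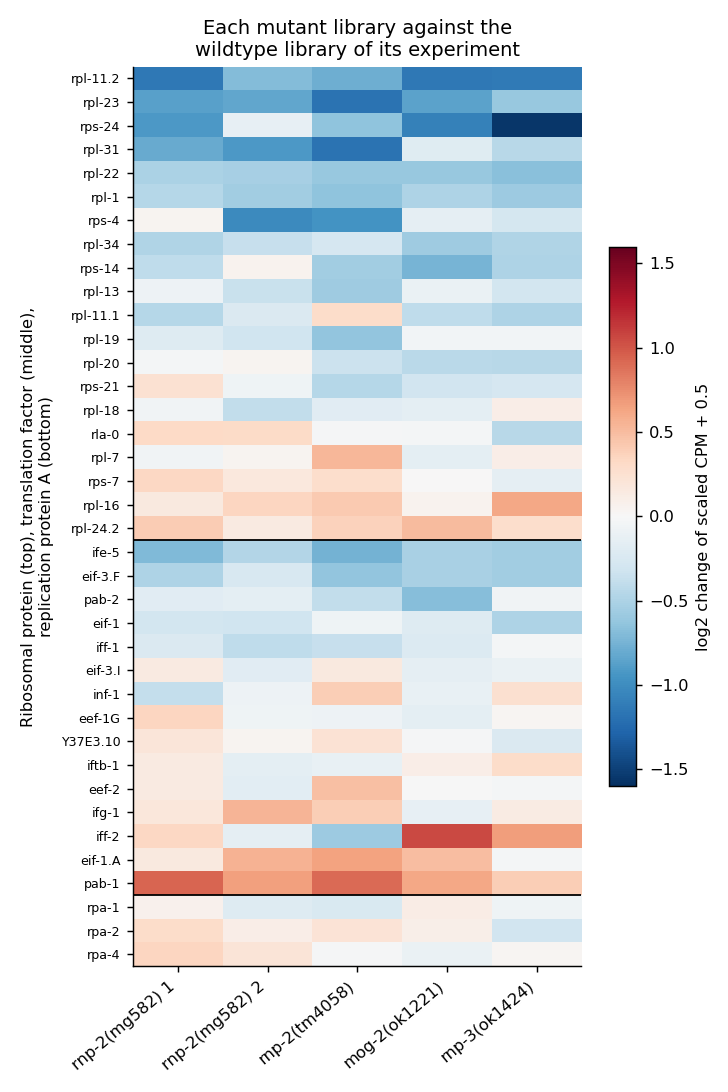
Log2 change of scaled CPM + 0.5 of the 38 tested members (rows) in each of the 5 mutant libraries (columns), each against the wildtype library of its own experiment. Columns of 1 experiment share their wildtype library, and rpl-11.2, at the top, lies below 0 in every column.

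The genotypes mog-2(ok1221), rnp-3(ok1424) and rnp-2(tm4058) have 1 library each, so their differences have no replicate check. The counts that follow are on log2(scaled CPM + 0.5), which understates folds at low levels: with 0.1 added in place of 0.5, 31 values of these 3 libraries lay past 2-fold, and 7 with 0.5. No share over all genes is given for 0.1, so the 31 shows only how the count depends on the value added. Against the wildtype library of the same experiment, rpl-31 and rpl-23 lay more than 2-fold lower in rnp-2(tm4058), rpl-11.2 and rps-24 in mog-2(ok1221), and rps-24 and rpl-11.2 in rnp-3(ok1424). All genes did so at a rate of 5.94%, 4.48% and 1.58% in these 3 libraries. The member iff-2 lay more than 2-fold higher in mog-2(ok1221), where 3.44% of all genes did. No member did in rnp-2(tm4058) (3.77% of all genes) or rnp-3(ok1424) (1.24%). The 2 rnp-2(mg582) libraries, set against their own wildtype in the same way, had 1 such gene each, rpl-11.2 (5.04% of all genes) and rps-4 (4.36%), and none higher (3.41% and 3.21%). The median log2 change of ribosomal protein genes was -0.50 in rnp-2(tm4058), -0.25 in mog-2(ok1221) and -0.44 in rnp-3(ok1424), against -0.07, -0.00 and -0.01 for all genes in the same libraries. That of translation factor genes was -0.07, -0.13 and -0.03.

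Unspliced reads, which reach from an exon into the intron, were few at ribosomal protein genes. The 21 genes had 22 unspliced and 2048 spliced reads over the 7 libraries, and in no library did unspliced reads exceed 5. The 15 translation factor genes had 367 unspliced and 4068 spliced reads, and the replication protein A genes had 1 and 428. Over all genes 7.22% to 8.58% of junction reads in a library were unspliced. In ribosomal protein genes the share ran from 0.621% (rnp-3(ok1424)) to 3.03% (rnp-2(tm4058)) in mutant libraries and was 0.806% and 0.680% in wildtype.

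The members with at least 20 unspliced reads were iff-2 (265) and pab-1 (70). In iff-2, 226 of these reads stood at the acceptor end of the long intron and 1 at its donor end, and 37 stood at the acceptor end of the intron upstream of it. The long intron is 586 bases and holds the snoRNA gene F54C9.12 (II:8560691-8560772, same strand), whose near end is 450 bases from the acceptor. Of all introns with both ends listed 0.248% hold a snoRNA gene on the same strand, and of the members' 52 such introns 3 do, in iff-2, eef-1G and rps-4. In pab-1, 59 of the 70 reads stood at 1 acceptor end, at I:10434678. Over the members 348 unspliced reads stood at acceptor ends and 25 at donor ends (93.3% at acceptors), against 53.2% at acceptors over the table. The 3 acceptor ends of iff-2 and pab-1 named above hold 322 of the 348. Ribosomal protein genes had 13 at acceptor and 9 at donor ends (59.1% at acceptors).

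The unspliced share of iff-2 was 21.7% and 22.2% in rnp-2(mg582), 25.5% in rnp-2(tm4058), 18.7% in mog-2(ok1221) and 14.1% in rnp-3(ok1424), against 12.7% and 15.3% in wildtype. The 3 rnp-2 libraries had the highest shares. Their 95% Wilson intervals started at 16.1%, 16.9% and 15.5% and met those of wildtype, which ended at 18.3% and 18.96%. The log2 change of the unspliced to spliced ratio in rnp-2(mg582) was 0.46 ± 0.21 (SE), and it did not pass in limma (adjusted p = 0.275, and 0.165 with the block). Over all genes the ratio was higher for 3.77% and lower for 2.7%, and for 7.6% and 4.65% with the block. At the acceptor end of the long intron the share was 50.8% and 64.8% in rnp-2(mg582), 56.2% in rnp-2(tm4058), 45.5% in mog-2(ok1221) and 31.2% in rnp-3(ok1424), against 26.8% and 47.5% in wildtype. In pab-1 the share was 8.51% and 3.47% in rnp-2(mg582), 5.19% in rnp-2(tm4058), 17.98% in mog-2(ok1221) and 22.4% in rnp-3(ok1424), against 16.7% and 3.80% in wildtype, a log2 change of the ratio of -0.71 in rnp-2(mg582) that did not pass (limma adjusted p = 0.470, and 0.0708 with the block).

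**Figure D5:**
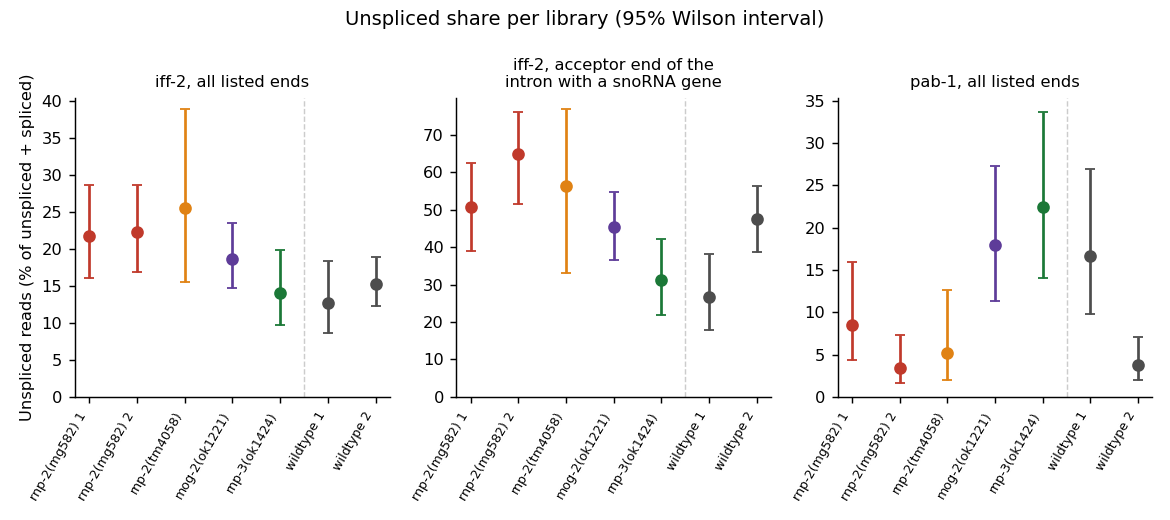
Unspliced reads as a percent of unspliced and spliced reads, with 95% Wilson intervals, for iff-2 (left), the acceptor end of its long intron (middle) and pab-1 (right), in 5 mutant libraries and, right of the dashed line, 2 wildtype libraries. In iff-2 the 3 rnp-2 libraries lie at 21.7% to 25.5% and wildtype at 12.7% and 15.3%, with intervals that meet.

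Other genes of protein synthesis did not pass in rnp-2(mg582). Of 1 further ribosomal protein gene (ubq-2), 9 further translation factors, 17 aminoacyl-tRNA synthetases, which charge tRNAs, and 27 mitochondrial ribosomal protein genes that passed the filter, 0 rose and 0 fell in limma, with 0, 2, 0 and 3 at an unadjusted p under 0.05, and edgeR and DESeq2 called 0. Their median log2 changes were -0.36, 0.09, -0.06 and -0.03, against -0.02 for all genes. With the experiment as a block 1 of them, the translation factor gene drr-2, rose.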

How the data were processed

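The authors deposited a table of CPM, which are counts relative to a library's total reads, with an unspliced (IEJ) and a spliced (EEJ) value for each junction end and library. STAR and SAMtools are named, per the submitters' processing notes. Not given in the sources used here are the build, the use of strand and the handling of reads with several alignments, so overlapping and near-identical genes can share reads. Each library's values were multiples of 1 CPM step (100% of them, tolerance 1e-06 reads), which gave whole reads and library totals. Of 14533 lines, 98.1% match WBcel235 intron ends. Introns of a gene whose reads agreed within 5% (20 reads or more) were counted once, which left 7282 junctions.

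Genes were kept by filterByExpr (minimum count 10, total 15), leaving 3551. The test was limma 3.58.1 (R 4.3.3) on log2(TMM-scaled CPM + 0.5), with TMM factors (0.0846 to 2.97) from edgeR 4.0.16 and 1 coefficient per genotype over 7 libraries. The fit was checked on simulated data without an experiment effect, with changes planted only in genes above 1 scaled CPM. Ribosomal protein members averaged at most 0.804 scaled CPM, so the check does not cover them. Same-numbered libraries of rnp-2(mg582) and wildtype deviated together (r = 0.382 over 3551 genes); the pairing comes from the experiment number in the titles. Alternatives were library size, median-of-ratios factors, edgeR, DESeq2 1.42.0, pseudocounts of 0.1 and 2, no filter, all introns counted, the block, and each library left out. The plan kept the rpa genes with ribosomal proteins and offered the annotated class as an alternative, used here throughout.

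Members and lists were chosen with earlier results of these data known. Described with values per library are members called with or without the block, the 5 of highest mean level per class, paralog pairs and members with at least 20 unspliced reads. The genes rpl-19, eif-3.F and rpl-5, and those named by range, were named after their values were seen.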

Additional observations from a re-analysis of the deposited data

Results flagged for a closer look

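In the 5 mutant libraries, 3 of 39 members were flagged for 1 library apart from the other 4. Chance is taken to give about 1 in 20, a rate not checked at counts this low. All 3 were in rnp-2(tm4058), the library with the fewest spliced reads. There rpl-11.1 was highest at 0.745 scaled CPM (9 reads), eef-2 was highest at 1.74 (21 reads) and rpl-11.2 was lowest at 0. For rpl-11.2 the other 4 libraries had 1 read each, so its flag rests on 1 read and shows no difference. A count of 3 reads equals 0.248 scaled CPM in that library.

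The gene Y37E3.10 had 4 to 21 spliced reads per library. Its 3 rnp-2 libraries lay above the wildtype of their experiment (mean log2 0.16). That of mog-2(ok1221) lay close to its wildtype (-0.02) and that of rnp-3(ok1424) below it (-0.23), with a mean of -0.12. The difference was 0.28, and it was not tested.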

How the results depend on the processing

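The number of members called in rnp-2(mg582), 4 in the report, was 0 with library size alone, 0 with DESeq2, 2 with a pseudocount of 0.1, 1 without the filter and 8 with the experiment as a replicate block, and 0 to 3 with a library left out. In DESeq2 rpl-11.2 and rpl-22 had no adjusted p. For the 5 mutant libraries the count, 0 in the report, was 1 with DESeq2 and 0 to 2 with a library left out, the 2 being rpl-11.2 (adjusted p = 0.0225) and rpl-23 (0.0474) without rnp-3(ok1424). Of the members' junctions 1 passed. The count was 0 with library size alone, with DESeq2 or without the filter, 2 with median-of-ratios factors, 11 with the block, and 0 to 1 with a library left out. Calls past 2-fold in single genotypes, 7 in the report, were 22 with library size alone, 31 with a pseudocount of 0.1 and 0 with one of 2. Shares over all genes are not given for these settings. Of the wider list 1 gene (drr-2) passed with the block. No log2 change of a member called with or without the block changed sign under any of these alternatives. Of all tested members 0 to 5 did in rnp-2(mg582) and 0 to 7 in the 5 mutant libraries, the most with library size alone (5 and 7, all to negative), and also 5 without rnp-2(mg582) replicate 1. Among members described by library these were iff-2 (-0.49) and eif-1.A (-0.0813) with library size alone, iff-2 without wildtype 1, and pab-2 without wildtype 1 or rnp-2(mg582) 2. With a library left out iff-2 ran from -0.15 to 0.39 and pab-2 from -0.32 to 0.0286. The ratio of rpl-11.2 over rpl-11.1 ran from -3.26 to -2.49 with a library left out or 1 read added. Depth limits all of this: rnp-2(tm4058) had 0 reads at 7 members and at most 3 at 21.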
